A study of Mus musculus with 16 samples.

Results

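Macrophages without Ogr1 were compared with wild-type macrophages over all 16 arrays of the series, with the pH of the medium as a covariate, so that the difference between genotypes is the average over both pH values. The members are arrays, chosen by the genotype on their labels: 8 are Ogr1 -/- (KO) and 8 are Ogr1 +/+ (WT). They fall into 4 arrays of KO at pH 6.7, 4 of WT at pH 6.7, 4 of KO at pH 7.7 and 4 of WT at pH 7.7. All cells were primary resident macrophages from the peritoneal cavity of C57BL/6 mice, and the medium, held for 24 h at its pH, was RPMI 1640 with 10% fetal calf serum. Sample names give the pH values used here, whereas the treatment text gives 6.8 and 7.6 for the acidic and the control medium. Neither the age or number of the mice nor how the Ogr1 allele was made is in the labels, and nothing says whether replicates are different animals, so that the p-values reflect variation among these arrays that could be technical. The series was designed to ask how cells with and without the receptor respond to acid, and the comparison below asks which transcripts differ between the genotypes whatever the pH.

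Ogr1 is a G protein-coupled receptor of the cell surface that is activated by protons, through histidines on its outer face. It couples mainly to Gq, which switches on phospholipase C, releases calcium from internal stores and activates protein kinase C and calcineurin. Macrophages carry related proton sensors of the same family, among them Gpr65 and Gpr132, which signal through other G proteins. Resident peritoneal macrophages clear dying cells and microbes from the abdominal cavity and express the integrin chain Itgam, the receptor Csf1r and the surface protein Adgre1 at high levels.

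The array reports exon-level probe sets, and the log2 of the deposited intensity, averaged over all probe sets with the gene's symbol, was the value of a gene. A gene was tested where this value lay above the array's median on at least 4 arrays, which held for 9386 of 20848 genes, while 11462 were dimmer. Array medians lay between 3.03 and 3.11 in log2. One array, WT pH 7.7 replicate 2, lay away from the others: its median correlation with them was 0.883, and that of every other array between 0.907 and 0.923. The targeted gene was not analysed here, so the genotype labels were not checked against its transcript. Of 5 tested genes that mark macrophages in general, 0 had an unadjusted limma p under 0.05, and their log2 differences, KO minus WT, lay between −0.07 and −0.01. The female transcript Xist differed by 0.06 ± 0.07 in log2 (SE), and the Y-linked Eif2s3y, Kdm5d and Uty lay below the array median on all arrays.

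One gene, Dglucy, differed between the genotypes at the threshold of an adjusted p under 0.05, which is 0.0107% of the 9386 genes tested, and it was lower in KO. Dglucy encodes D-glutamate cyclase, a mitochondrial enzyme that breaks down D-glutamate. In the RefSeq annotation it is the nearest gene with a probe set on one side of the Ogr1 locus, on chromosome 12. At pH 6.7 its log2 intensity was 4.14, 3.78, 4.01 and 4.18 on the KO arrays, against 4.76, 4.26, 4.59 and 4.46 on the WT arrays. At pH 7.7 it was 3.26, 3.39, 3.38 and 3.49 in KO, against 3.99, 3.83, 4.29 and 4.18 in WT. The KO and WT arrays did not overlap at either pH, and the level was lower at pH 7.7 than at pH 6.7 in both genotypes.

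Averaged over both pH values, Dglucy fell by 0.59 ± 0.09 in log2 in KO (SE, n = 8 arrays per genotype, limma adjusted p = 0.0335, 95% interval −0.78 to −0.40), to 0.663 times the WT intensity. The difference was −0.49 ± 0.13 at pH 6.7 and −0.69 ± 0.13 at pH 7.7, with unadjusted limma p of 0.00108 and 3.62e-05, and the interaction between genotype and pH was 0.20 (adjusted p = 0.651). By the rule that asked for an adjusted p under 0.05 on average and an unadjusted p under 0.05 with the same sign at each pH, Dglucy was the 1 gene that differed at both pH values, 0.0107% of genes tested. No gene had an adjusted p under 0.05 at both pH values. The call was lost when the brightest probe set stood for the gene (−0.78, adjusted p = 0.189), when the median over probe sets did (−0.81, adjusted p = 0.242), without the filter on dim genes (adjusted p = 0.0535) and without the pH term (adjusted p = 0.997). Of the 16 fits that left out 1 array, 5 kept it, those without KO pH 6.7 replicate 1 or 4, WT pH 6.7 replicate 2, or WT pH 7.7 replicate 2 or 3. The log2 difference in these 16 fits lay between −0.64 and −0.55, with adjusted p from 0.0088 to 0.117.

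**Figure D1:**
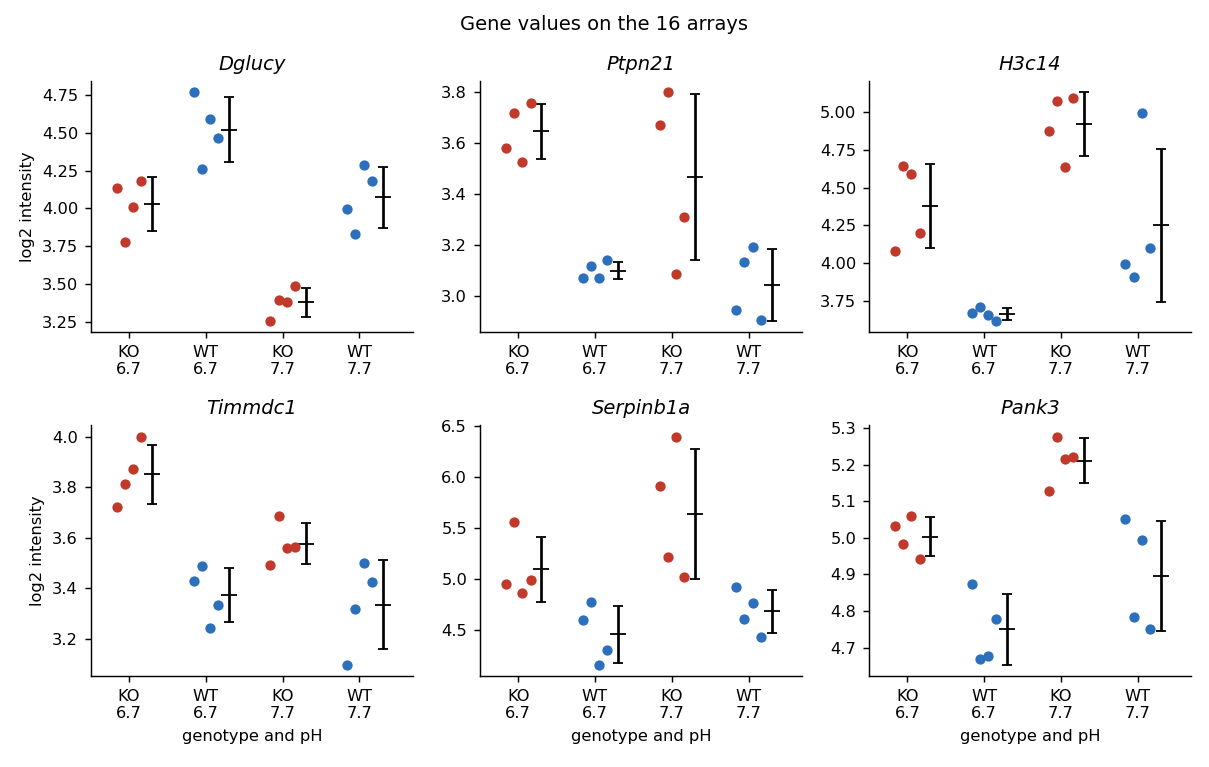
Log2 intensity of 6 genes on each of the 16 arrays (points), by genotype and pH, with the mean and SD of each group of 4 arrays (bars). Dglucy is lower on every KO array than on the WT arrays of the same pH, and Serpinb1a and Pank3 are higher on every KO array than on the WT arrays of the same pH, while Ptpn21, H3c14 and Timmdc1 overlap at pH 7.7.

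The lower value of Dglucy was not uniform over its probe sets, which are numbered here in the order of the deposited table. Of its 16 probe sets, 14 were lower in KO. The largest difference was at the last in the table, where the log2 intensity averaged 2.89 ± 0.85 in KO and 4.61 ± 0.60 in WT (SD, n = 8 arrays each), a difference of −1.73. The tenth was at 3.32 ± 0.60 in KO and 4.98 ± 0.56 in WT, a difference of −1.66. The brightest probe set, number 15, was at 6.33 ± 0.47 in KO and 7.11 ± 0.34 in WT. Probe sets 11 and 13 had differences of 0.24 and 0.11. Probe set 1 differed by −1.07 at pH 7.7 and by 0.14 at pH 6.7, and probe set 8 by −0.19 at pH 7.7 and by −1.09 at pH 6.7, so that the probe sets did not move together at the 2 pH values.

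**Figure D2:**
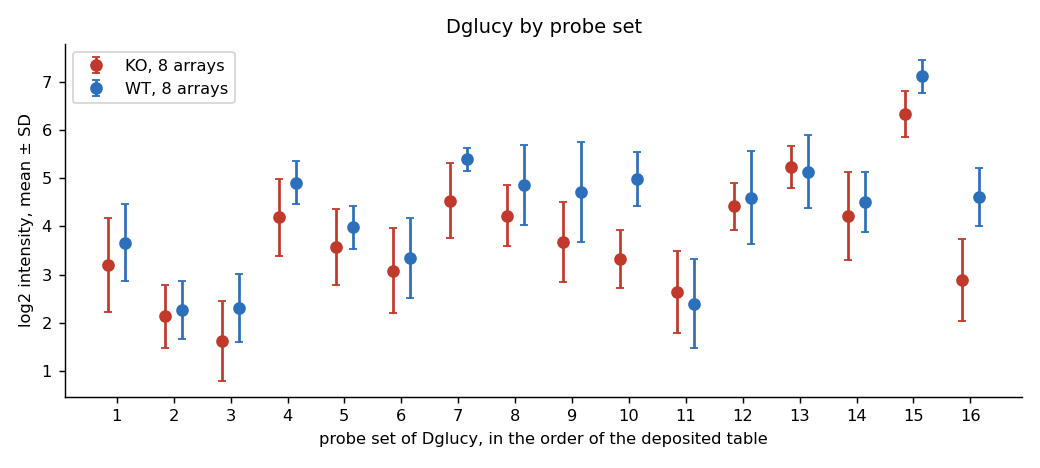
Log2 intensity of each of the 16 probe sets of Dglucy, in the order of the deposited table, as mean and SD over the 8 KO and the 8 WT arrays. The gap between KO and WT is widest at probe sets 10 and 16, and 14 of 16 probe sets are lower in KO.

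The start of Dglucy lies on the forward strand, and the 250 bases before and 50 after it (RefSeq, GRCm38.p6, chr12:100778807-100779106) are shown because this gene carries the 1 call. Capitals mark the CCAAT box, read as CCAAT or, on the other strand, ATTGG; the window holds 2.
Dglucy: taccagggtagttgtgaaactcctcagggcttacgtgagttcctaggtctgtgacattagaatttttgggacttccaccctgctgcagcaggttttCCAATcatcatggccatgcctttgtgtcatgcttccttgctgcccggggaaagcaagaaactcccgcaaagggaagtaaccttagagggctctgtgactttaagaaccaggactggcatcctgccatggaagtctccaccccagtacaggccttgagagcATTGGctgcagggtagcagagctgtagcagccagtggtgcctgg
The sterol regulatory element core TCACNCCA is not in this window. Of 27025 genes with a promoter in the RefSeq table, 41.1% hold a CCAAT on either strand, and 42.3% of the 7502 tested genes with a promoter there do, so a match is common. A match is a description of the letters only.

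The genes beside Dglucy were described next, since the position of the called gene was known. Within 25 annotated genes on either side of the Ogr1 locus, 50 genes had a probe set and 24 of them were tested. Of these 24, 3 had a positive and 1 a negative difference at an unadjusted p under 0.05, together 16.7%, against 6.37% of all tested genes. The negative one is Dglucy itself, and without it the count is 3 of 23 (13%). The median log2 difference of the 24 was 0.07, against 0.04 over all tested genes. Over all 50, dim genes included, 14% had an unadjusted p under 0.05 and the median was 0.01.

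Ptpn21, which encodes a cytosolic tyrosine phosphatase with a FERM domain, lies 15 annotated genes from the locus on the side of Dglucy. At pH 6.7 its log2 intensity was 3.58, 3.72, 3.53 and 3.76 in KO, against 3.07, 3.12, 3.07 and 3.14 in WT. At pH 7.7 it was 3.67, 3.80, 3.09 and 3.31 in KO, against 2.95, 3.14, 3.19 and 2.90 in WT. The groups were apart at pH 6.7 and overlapped at pH 7.7, where KO replicate 3 lay among the WT arrays. The difference was 0.48 ± 0.09 (limma adjusted p = 0.226), positive in 19 of 22 probe sets, and it passed the threshold in the fit without KO pH 7.7 replicate 3 (0.55, adjusted p = 0.0228). Ttc7b, a subunit of the complex that holds the lipid kinase PI4KA at the plasma membrane, had a difference of 0.30 ± 0.10 (unadjusted p = 0.00561) and Ston2, an endocytic adaptor named after its value was seen, of 0.25 ± 0.08.

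Next by p in the region, with unadjusted p above 0.05, were the ubiquitin ligase gene Ubr7 with a log2 difference of 0.25 ± 0.12 and the lysosomal galactosylceramidase gene Galc with −0.17 ± 0.08. The nearest gene with a probe set on the other side of the locus, Ccdc88c, was below the filter and not tested, and its values had a difference of −0.26 ± 0.09, with −0.44 at pH 6.7 and −0.07 at pH 7.7. Spata7, also dim and named after its value was seen, had 0.33 ± 0.13. Gpr65, a proton-sensing relative of Ogr1 that lies in the same stretch of the chromosome, had a difference of 0.01 ± 0.10. Loss of the receptor and any other sequence difference at the locus between the KO and WT mice cannot be told apart in this design.

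**Figure D3:**
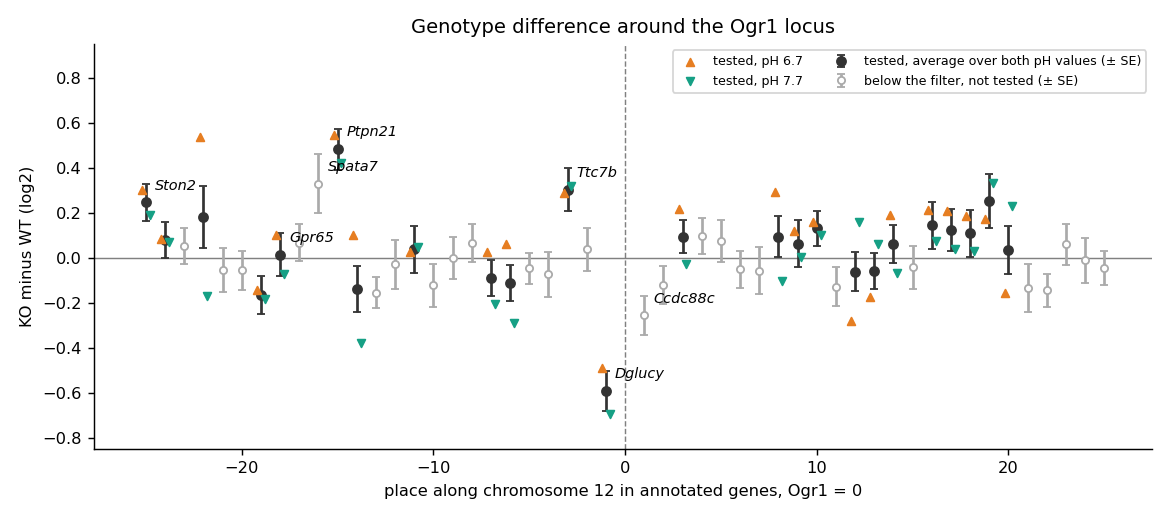
KO minus WT in log2 for the genes within 25 annotated places on either side of the Ogr1 locus (dashed line). Filled circles are tested genes averaged over both pH values with their SE, triangles their values at each pH, and open circles genes below the filter; Dglucy stands at −0.59 and Ptpn21 at 0.48, and Ccdc88c, on the other side, at −0.26.

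Beyond Dglucy and Ptpn21, the genes with the smallest p all had positive differences and none passed the adjustment. H3c14, a replication-dependent histone H3 gene with near-identical copies whose signal the probe sets may share, had 0.69 ± 0.13 (limma adjusted p = 0.226). At pH 6.7 its log2 intensity was 4.08, 4.64, 4.59 and 4.20 in KO, against 3.67, 3.71, 3.66 and 3.62 in WT. At pH 7.7 it was 4.87, 5.07, 4.64 and 5.09 in KO, against 3.99, 3.91, 4.996 and 4.10 in WT, where WT replicate 3 lay among the KO arrays. Without that array the difference was 0.81 with an adjusted p of 0.00207, and H3c14 then passed.

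Serpinb1a encodes an inhibitor of neutrophil serine proteases and has close paralogues. Its log2 intensity at pH 6.7 was 4.95, 5.56, 4.86 and 4.99 in KO, against 4.60, 4.77, 4.16 and 4.30 in WT. At pH 7.7 it was 5.91, 5.21, 6.39 and 5.02 in KO, against 4.92, 4.61, 4.76 and 4.43 in WT. The groups were apart at both pH values, and the difference was 0.79 ± 0.17 (limma adjusted p = 0.343), in all 7 probe sets. Pank3, a pantothenate kinase of coenzyme A synthesis, averaged 5.004 ± 0.05 in KO and 4.75 ± 0.10 in WT at pH 6.7, and 5.21 ± 0.06 in KO and 4.90 ± 0.15 in WT at pH 7.7 (SD, n = 4 arrays each). Its arrays were also apart at both pH values, and its difference was 0.28 ± 0.06 (adjusted p = 0.343).

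Timmdc1, an assembly factor of respiratory complex I, had a log2 difference of 0.36 ± 0.07, with 0.48 at pH 6.7 and 0.24 at pH 7.7. Ahi1, a protein of the base of the primary cilium, had 0.31 ± 0.07. It was above the array median on 4 KO arrays and 0 WT arrays, so it was tested only through the genotype in which it was high. The remaining genes among the 10 with the smallest p were Cpped1, a phosphatase gene (0.28 ± 0.06), Armc5, which encodes an armadillo repeat protein (0.31 ± 0.07), and Abt1, a factor of ribosomal RNA processing (0.36 ± 0.09). Abt1 was above the array median on 7 KO and 2 WT arrays, so it too was tested only through KO.

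Over all 9386 genes the differences between genotypes were small. The median size of the log2 difference was 0.07 and 99% of genes lay within 0.36, while the median SE was 0.09. The 95% interval of the difference lay within a 2-fold change either way for 9328 genes (99.4%), and within a 1.5-fold change for 9021 (96.1%). An unadjusted p under 0.05 was reached by 598 genes (6.37%), of which 488 had a positive difference (5.2% of genes tested) and 110 a negative one (1.17%). Of all tested genes 6236 (66.4%) had a positive difference. This surplus of positive differences depended on the scaling of the arrays: with the gene values quantile-normalized again, 262 positive and 266 negative differences had an unadjusted p under 0.05, and 50.7% of all genes were positive. Without WT pH 7.7 replicate 2, 357 positive and 173 negative differences did. The split among genes with an unadjusted p under 0.05 was 81.6% positive as deposited and 49.6% after this normalization.

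Genes were then compared between the pH values in separate fits of 8 arrays each, which share no array. At pH 6.7 alone, 1330 genes (14.2%) had an unadjusted limma p under 0.05, 1007 higher in KO (10.7%) and 323 lower (3.44%). At pH 7.7 alone 636 did (6.78%), 411 higher (4.38%) and 225 lower (2.4%). None passed the adjustment at either pH in these fits. An unadjusted p under 0.05 at both pH values was found for 20 genes with the same direction (0.213%) and for 98 with opposite directions (1.04%). Of the 20, 17 were higher in KO at both pH values and 3 lower (0.181% and 0.032%). The 17 include Ahi1, Abt1 and Wrnip1, the last named after its value was seen. These were above the array median on 4, 7 and 8 KO arrays and on 0, 2 and 1 WT arrays. They were thus tested only through the KO arrays, in which they were high. The 98 in opposite directions were not checked for this. The 3 lower ones were Dglucy, the orphan nuclear receptor gene Esrra and the transcription factor gene Hes6. Of these, Esrra was above the array median on 8 WT and 3 KO arrays, so it was tested only through WT. Leaving out 1 array at a time, between 13 and 41 genes had the same direction and between 63 and 131 the opposite one, with 13 in the same direction without KO pH 6.7 replicate 2, 32 without WT pH 6.7 replicate 2 and 41 without WT pH 7.7 replicate 3, and 63 in the opposite one without KO pH 7.7 replicate 1. Over all genes, the differences at pH 6.7 and pH 7.7 had a Pearson r of −0.36 and a Spearman rho of −0.26, across genes that are not independent replicates.

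Arrays of KO and WT were fully apart at both pH values for 8 genes in the same direction (0.0852%; 6 higher in KO, 0.0639%, and 2 lower, 0.0213%) and for 27 in opposite directions (0.288%). The 8 were Dglucy, Serpinb1a, Pank3, Ahi1, Esrra, Nudt5, Tkt and Timm17a, of which the last 4 were picked out after their values were seen. Ahi1 was above the array median only in groups in which it was high, which leaves 7 in the same direction. Of the 27 in opposite directions this held for Loxl3 and Slc29a2, which leaves 25. Among the 7, Esrra was above the median on 8 WT and 3 KO arrays. It too reached the 4 arrays of the filter only through the genotype in which it was high. The 25 were not checked for this. Esrra, which governs genes of mitochondrial energy metabolism, had a log2 difference of −0.33 at pH 6.7 and −0.35 at pH 7.7 (−0.34 ± 0.09 on average, limma adjusted p = 0.692). Tkt, the transketolase of the pentose phosphate pathway, was bright and its arrays lay close together, at 7.73 ± 0.06 in KO and 7.51 ± 0.11 in WT (SD, n = 8 arrays each), a difference of 0.22 ± 0.06. Timm17a, a channel subunit of the inner mitochondrial membrane translocase, was at 6.88 ± 0.12 in KO and 6.67 ± 0.12 in WT. Nudt5, a hydrolase of ADP-sugars, had 0.59 at pH 6.7 and 0.28 at pH 7.7.

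**Figure D4:**
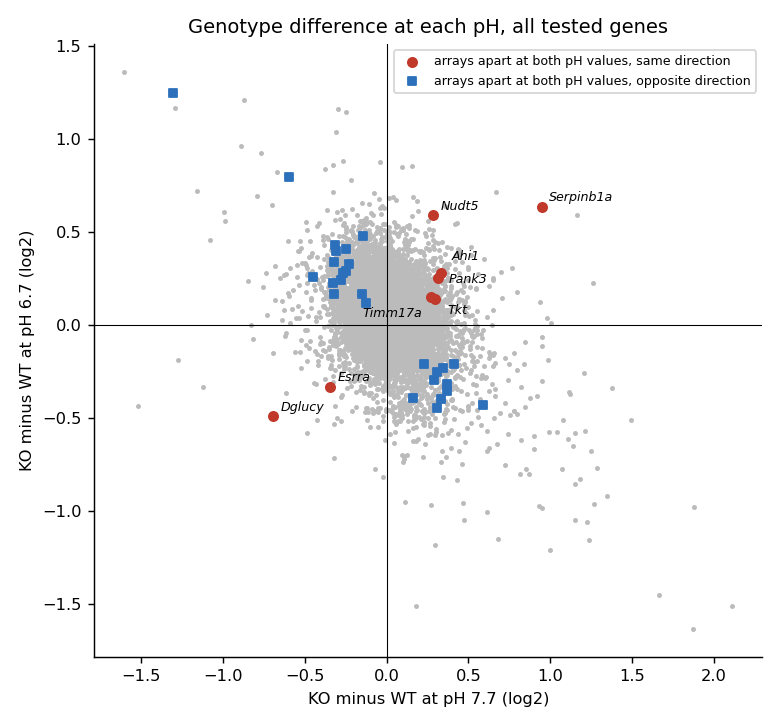
KO minus WT in log2 at pH 7.7 (horizontal) and at pH 6.7 (vertical) for all 9386 tested genes (grey). The 8 genes whose KO and WT arrays are apart at both pH values in the same direction (circles, named) are fewer than the 27 in opposite directions (squares), and Dglucy is at the lower left.

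Differences that turned round between the pH values were tested as an interaction, in which 10 genes (0.107%) had an adjusted p under 0.05, 8 positive (0.0852%) and 2 negative (0.0213%). At an unadjusted p under 0.05 there were 1249 (13.3%), 731 positive (7.79%) and 518 negative (5.52%). Of the 5 with the smallest p, Zc3h12c, which encodes a ribonuclease of the Regnase family, had a log2 intensity of 5.50, 5.66, 5.53 and 5.52 in KO at pH 6.7, against 5.01, 5.09, 5.24 and 5.16 in WT. At pH 7.7 it was 5.52, 5.38, 5.6 and 5.46 in KO, against 5.74, 5.77, 5.79 and 5.91 in WT. The KO arrays thus lay above WT at pH 6.7 and below it at pH 7.7, and the 8 KO arrays lay between 5.38 and 5.66. Loxl3, a lysyl oxidase of collagen crosslinking, averaged 2.88 ± 0.10 in KO and 3.28 ± 0.11 in WT at pH 6.7, and 3.19 ± 0.06 in KO and 2.86 ± 0.09 in WT at pH 7.7. For Htra4, a secreted serine protease, the averages were 2.71 ± 0.12 in KO and 3.30 ± 0.16 in WT at pH 6.7, and 3.02 ± 0.14 in KO and 2.73 ± 0.11 in WT at pH 7.7. Loxl3 was above the array median on the 4 WT arrays at pH 6.7 and the 4 KO arrays at pH 7.7 only, and Htra4 on the 4 WT arrays at pH 6.7 and 1 KO array at pH 7.7, so both were tested only through groups in which they were high. Gm6983 and Dleu2, with interactions of 1.39 and 2.55, rest on 1 probe set each. In the fit of all arrays, 3 genes passed at pH 6.7 (0.032%), all higher in KO, with 1139 (12.1%) at an unadjusted p under 0.05, 859 higher (9.15%) and 280 lower (2.98%). At pH 7.7 0 passed by limma, with 821 (8.75%) at an unadjusted p under 0.05, 520 higher (5.54%) and 301 lower (3.21%).

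Markers of mast cells and B cells, which also live in the peritoneal cavity, had medians of opposite sign at the 2 pH values. The level of the mast cell list, as the mean log2 over its 12 genes, ranged over 2.22 to 2.68 in KO and 2.17 to 4.13 in WT at pH 6.7, and over 2.65 to 3.002 in KO and 2.12 to 2.66 in WT at pH 7.7. Of the 12, 3 were bright enough to test, Hdc, Cpa3 and Tpsb2, and their median log2 difference was −0.57 at pH 6.7 and 0.62 at pH 7.7. The B cell list ranged over 2.65 to 2.751 in KO and 2.62 to 3.59 in WT at pH 6.7, and over 2.70 to 3.30 in KO and 2.49 to 2.81 in WT at pH 7.7; 6 of its 16 genes were tested, with medians of −0.37 and 0.41. Most defining markers of these cells, among them Pax5, Kit and Ms4a2, were below the filter. The part of these cells in the genotype differences was not tested, and in bulk samples fewer cells of a type and less RNA per cell cannot be told apart.

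Cholesterol synthesis and its regulator SREBP2 were the list with the largest median. Cells make cholesterol from acetyl-CoA in the endoplasmic reticulum, and when sterols are scarce SREBP2 is released to the nucleus and switches on the genes of the pathway. The 20 tested genes of the list all had positive log2 differences, against 66.4% of all tested genes. Their median was 0.24, against 0.04 over all tested genes. An unadjusted p under 0.05 was reached by 8 of the 20 and an adjusted p under 0.05 by 0, against 6.37% and 0.0107% of all genes. The median was 0.17 at pH 6.7 and 0.31 at pH 7.7.

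Msmo1, the sterol methyl oxidase of the pathway, had a log2 intensity of 6.36, 6.36, 6.19 and 6.06 in KO at pH 6.7, against 5.69, 5.69, 5.76 and 5.59 in WT. At pH 7.7 it was 6.62, 6.76, 6.90 and 7.20 in KO, against 6.68, 6.17, 7.09 and 6.54 in WT. The groups were apart at pH 6.7 and overlapped at pH 7.7, and the difference was 0.41 ± 0.12 (limma adjusted p = 0.692). Stard4, which carries cholesterol between membranes, had 0.42 ± 0.13, with 0.38 at pH 6.7 and 0.45 at pH 7.7. Srebf2, the gene of SREBP2 itself, had 0.26 ± 0.09 and Fdps, the farnesyl diphosphate synthase, 0.31 ± 0.11.

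Named after their values were seen, Sc5d, the sterol desaturase, had a log2 difference of 0.42 ± 0.15, Insig1, which holds SREBP2 back in the endoplasmic reticulum, 0.36 ± 0.13, Dhcr7 0.23 ± 0.10 and Cyp51 0.40 ± 0.19. The smallest difference was 0.04, of Tm7sf2. As the mean log2 over the list, the level ranged over 4.43 to 4.81 in KO and 4.25 to 4.57 in WT at pH 6.7, and over 5.29 to 5.67 in KO and 4.83 to 5.58 in WT at pH 7.7, so that the groups overlapped at both pH values and the gap between pH values was wider than that between genotypes. Without WT pH 7.7 replicate 2, the array that stood apart, 18 of the 20 differences were positive, 6 had an unadjusted p under 0.05 and the median was 0.21. After quantile normalization 20 of 20 were positive with a median of 0.21, while 50.7% of all genes were positive and their median moved to 0.00. Without the pH term 0 of the 20 had an unadjusted p under 0.05.

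The promoters of Msmo1 and Srebf2 are shown as members of this list whose windows hold the element that SREBP2 is known to bind. Capitals mark each CCAAT box, the site of the cofactor NF-Y in sterol-regulated promoters, and each match of TCACNCCA, on either strand. The windows, from RefSeq on GRCm38.p6, are chr8:64733529-64733828 on the reverse strand for Msmo1 and chr15:82147019-82147318 on the forward strand for Srebf2, each read in the direction of the gene.
Msmo1: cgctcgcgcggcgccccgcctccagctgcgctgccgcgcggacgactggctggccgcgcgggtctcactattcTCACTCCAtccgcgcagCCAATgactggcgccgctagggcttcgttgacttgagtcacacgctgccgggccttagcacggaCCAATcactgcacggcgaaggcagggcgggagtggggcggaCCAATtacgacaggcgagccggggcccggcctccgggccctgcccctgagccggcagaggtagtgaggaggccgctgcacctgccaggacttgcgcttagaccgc
Srebf2: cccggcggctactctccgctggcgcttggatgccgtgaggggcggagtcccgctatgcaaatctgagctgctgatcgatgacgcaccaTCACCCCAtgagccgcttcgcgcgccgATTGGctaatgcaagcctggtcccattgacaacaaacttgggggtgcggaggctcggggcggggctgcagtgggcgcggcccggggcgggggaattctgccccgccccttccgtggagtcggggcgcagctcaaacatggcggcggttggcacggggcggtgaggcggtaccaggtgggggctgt
Msmo1 has 3 CCAAT and 1 TCACNCCA, and Srebf2 1 of each, with 0 overlaps between the 2 motifs. Of the 20 tested genes of the list, 16 have a promoter in the table, and 16 of the 16 hold a CCAAT, against 42.3% of the tested genes. TCACNCCA was in 3 of the 16 (18.8%), against 4.21% of tested genes. These are matches of letters, and binding was not measured.

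**Figure D5:**
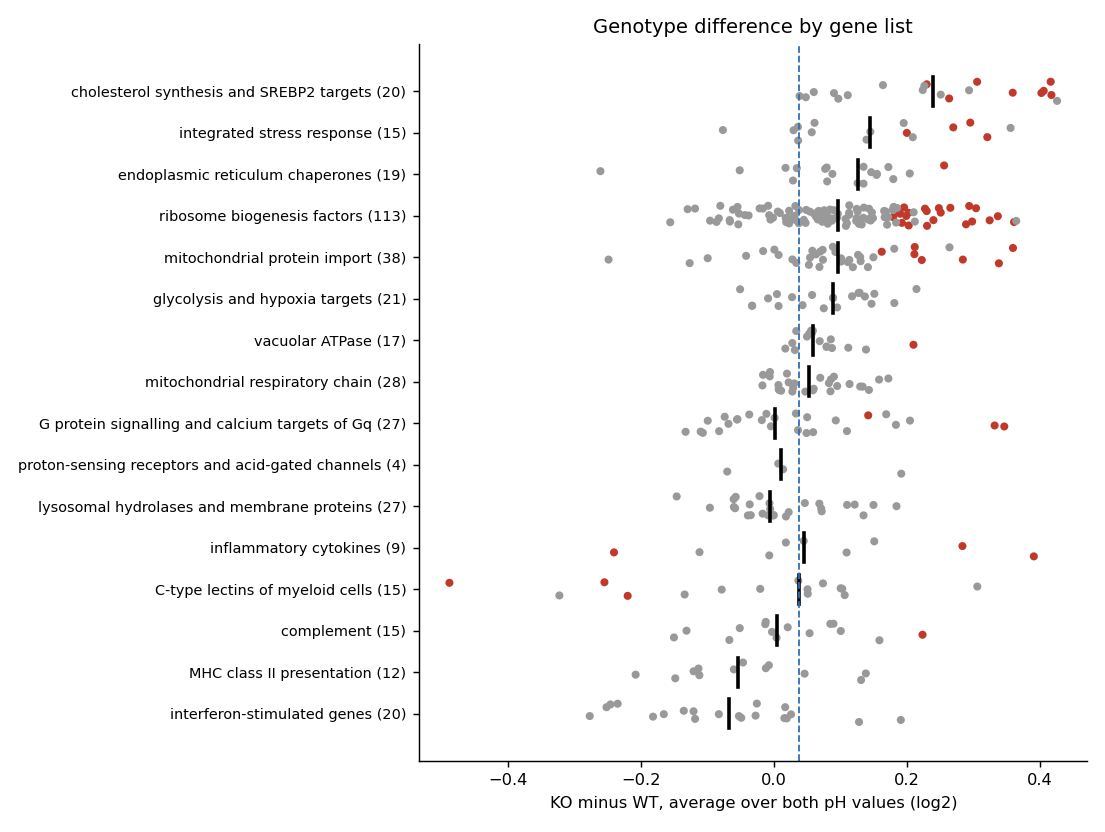
KO minus WT in log2, averaged over both pH values, for each tested gene (points) of 16 gene lists, with the number of tested genes in brackets. Red points have an unadjusted p under 0.05, black bars are list medians and the dashed line is the median of all tested genes, 0.04; all 20 cholesterol genes lie right of 0, with a median of 0.24.

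Target genes of LXR, the nuclear receptor that answers to oxysterols and drives cholesterol out of the cell, had a median log2 difference of 0.05 over 14 tested genes. An unadjusted p under 0.05 was reached by 1 of the 14, against 6.37% of all tested genes. That gene was Scd2, a stearoyl-CoA desaturase that SREBP proteins also drive. Its log2 intensity ranged over 6.75 to 8.15 in KO with a median of 7.43, against 6.06 to 8.004 in WT with a median of 6.93, and the difference was 0.47 ± 0.16 (limma adjusted p = 0.716). The cholesterol exporter gene Abca1 had −0.17 ± 0.12, with −0.44 at pH 6.7 and 0.10 at pH 7.7.

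Stress genes of the amino acid and endoplasmic reticulum responses had smaller medians. The integrated stress response slows protein synthesis and raises genes of amino acid supply through Atf4. Of its 15 tested genes, 14 had a positive log2 difference, 4 an unadjusted p under 0.05, and the median was 0.15 (after quantile normalization 11, 2 and 0.11). Of all tested genes 66.4% were positive and 6.37% had an unadjusted p under 0.05. After quantile normalization 50.7% were positive and 528 of 9386 had such a p. The 4 were the mitochondrial serine hydroxymethyltransferase gene Shmt2 (0.27 ± 0.09), the stress regulator Nupr1 (0.32 ± 0.12), Sesn2, a brake on mTORC1 (0.20 ± 0.09, with −0.02 at pH 6.7 and 0.42 at pH 7.7), and the amino acid transporter Slc7a5 (0.30 ± 0.13). Atf4 itself had 0.06 ± 0.06. Of 19 genes for protein folding in the endoplasmic reticulum, 1 had an unadjusted p under 0.05, Hyou1 with 0.26 ± 0.09, and the median was 0.13; Hspa5, the main luminal chaperone, had 0.20 ± 0.10 and Canx 0.13 ± 0.06.

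Factors of ribosome assembly and of mitochondrial protein import were listed after their values were seen. Of 113 tested ribosome factors, 23 had a positive log2 difference with an unadjusted p under 0.05 and 0 a negative one, against 5.2% and 1.17% of all tested genes, and the median was 0.10, with 0.18 at pH 6.7 and 0.01 at pH 7.7. Abt1, which was tested only through the KO arrays in which it was high, Gnl3l (0.29 ± 0.08), Sdad1 (0.30 ± 0.09) and Rbm28 (0.25 ± 0.07) had the smallest p. Between 15 and 30 of the 113 did so when 1 array was left out (15 without KO pH 6.7 replicate 4), and 15 did after quantile normalization, with a median of 0.05. Of 38 genes listed as import factors 7 had an unadjusted p under 0.05, against 6.37% of all tested genes, and all were positive. There were 4 positive and 1 negative after quantile normalization, and likewise without WT pH 7.7 replicate 2. Of all 9386 tested genes, 262 were positive and 266 negative at that p after quantile normalization. The smallest p of the 7 was that of Timmdc1 (0.36), described above as an assembly factor of complex I, which the list also holds. Among the others were Timm10, a chaperone of the intermembrane space (0.34 ± 0.10), and Pmpca, a subunit of the peptidase that removes targeting sequences (0.16 ± 0.06). The 28 tested genes of the respiratory chain had 0 with an unadjusted p under 0.05 and a median of 0.05.

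Genes of proton sensing, proton transport and Gq signalling were examined because of the receptor's own pathway. Of the 15 proton-sensing receptors and acid-gated channels listed, 4 were tested and 0 had an unadjusted p under 0.05. Gpr65 was at 7.14 ± 0.18 in KO and 7.13 ± 0.23 in WT (SD, n = 8 arrays each), and Gpr132 at 3.61 ± 0.25 in KO and 3.68 ± 0.36 in WT. The proton-activated chloride channel gene Pacc1 had a log2 difference of 0.19 ± 0.09 and the channel gene Trpv4 of 0.01 ± 0.09. The 17 tested subunits of the vacuolar ATPase, the pump that acidifies lysosomes, had a median of 0.06. An unadjusted p under 0.05 was reached by 1, against 6.37% of all tested genes. It was that of Atp6v1h (0.21 ± 0.09) and was lost without WT pH 7.7 replicate 2. As deposited 17 of 17 were positive, against 66.4% of all tested genes, and after quantile normalization 13 of 17, against 50.7%. The 27 lysosomal hydrolases and membrane proteins had a median of −0.01 and 0 at an unadjusted p under 0.05.

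Of 27 tested genes of G protein signalling and of calcium targets downstream of Gq, 3 had an unadjusted p under 0.05, all positive (against 5.2% of all tested genes positive and 1.17% negative), and the median was 0.00. There were 2 positive and 1 negative after quantile normalization, with a median of −0.04, and 1 positive and 2 negative without WT pH 7.7 replicate 2. Rcan1, which is induced by calcineurin and inhibits it, ranged over 5.18 to 6.02 in KO with a median of 5.58, against 4.79 to 5.62 in WT with a median of 5.30. Its log2 difference was 0.33 ± 0.10 (limma adjusted p = 0.692), with 0.40 at pH 6.7 and 0.26 at pH 7.7, and the groups overlapped. Rgs1, a protein that turns off G protein signals, had 0.35 ± 0.15 and the protein kinase C gene Prkcb 0.14 ± 0.07. Plcb2, a phospholipase C that Gq activates, had 0.18 ± 0.09.

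Among 9 tested cytokine genes, Csf1 and Osm had positive and Il27 negative differences at an unadjusted p under 0.05. Of all tested genes 5.2% had a positive and 1.17% a negative difference at that p. Csf1, the growth factor of macrophages, ranged over 3.84 to 5.21 in KO with a median of 4.46, against 3.37 to 4.52 in WT with a median of 4.02, a log2 difference of 0.39 ± 0.12. Osm had 0.28 ± 0.12, with 0.54 at pH 7.7 and 0.03 at pH 6.7, and Il27 had −0.24 ± 0.10. Both were dim. At pH 7.7 Osm was above the array median on 1 KO array and 0 WT arrays, and Il27 was above it on 1 KO and 5 WT arrays in all. Tgfb1 had 0.15 ± 0.07. None of these passed the adjustment (smallest limma adjusted p = 0.692).

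C-type lectins, the sugar-binding receptors of myeloid cells, had 3 of 15 tested genes with a negative difference at an unadjusted p under 0.05, against 1.17% of all tested genes. Clec9a, a receptor for actin of dead cells that marks conventional dendritic cells, had log2 values at pH 6.7 of 3.89, 4.45, 4.30 and 4.30 in KO, against 4.42, 3.998, 4.93 and 5.06 in WT. At pH 7.7 they were 3.31, 3.598, 2.88 and 3.24 in KO, against 3.63, 4.39, 3.44 and 4.02 in WT. The groups overlapped at both pH values, and the difference was −0.49 ± 0.16 (limma adjusted p = 0.716), in 10 of 10 probe sets. Clec4a3 had −0.26 ± 0.10 and Clec4d −0.22 ± 0.10, the value of Clec4d being −0.52 at pH 7.7 and 0.08 at pH 6.7, and Clec5a had 0.31 ± 0.15. The dendritic cell list, as the mean log2 over its 10 genes, of which 5 were tested, ranged over 3.0 to 3.26 in KO and 3.27 to 3.34 in WT at pH 6.7, and over 2.97 to 3.30 in KO and 2.92 to 3.15 in WT at pH 7.7. The part of dendritic cells in the value of Clec9a was not tested.

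Interferon-stimulated genes had a median log2 difference of −0.07 over 20 tested genes, and MHC class II presentation of −0.05 over 12, with 0 at an unadjusted p under 0.05 in both. Of 21 tested genes that mark large peritoneal macrophages, 2 had a positive difference at an unadjusted p under 0.05, Tgfb2 (0.19 ± 0.08) and Cd9 (0.15 ± 0.07), against 5.2% of all tested genes. The median was 0.10 on average, with −0.09 at pH 6.7 and 0.15 at pH 7.7. There were 1 positive and 1 negative after quantile normalization, and also without WT pH 7.7 replicate 2, where the median was 0.04. The transcription factor gene of these cells, Gata6, had 0.03 ± 0.14. As the mean log2 over the list, its level ranged over 6.28 to 6.48 in KO and 6.15 to 6.73 in WT at pH 6.7, and over 6.24 to 6.43 in KO and 5.92 to 6.20 in WT at pH 7.7. The groups did not overlap at pH 7.7, which was not particular to this list. The cytokine list (3.09 to 3.20 in KO, 2.97 to 3.07 in WT) and the LXR list (6.257 to 6.35 and 5.879 to 6.255) were apart there too. The ribosome list was apart at pH 6.7 (4.46 to 4.58 in KO, 4.20 to 4.40 in WT). The share of lists that were apart was not counted. Complement genes had a median of 0.00 on average, with −0.27 at pH 6.7 and 0.27 at pH 7.7.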

How the data were processed

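The authors deposited linear intensities for each probe set, which per the submitters' processing notes come from RMA, run in R 2.15.2. Labelled cRNA came from 6 µg of total RNA, per the labels' protocols. The platform table gave 1 symbol for 213361 of 241576 probe sets, which were used, several for 5107 and no listed one for 23108. Of 20893 symbols, 18496 were current in RefSeq (GRCm38.p6), 2354 were updated and 43 kept, giving 20848 genes with a median of 8 probe sets. Log2 was taken and averaged per gene. All 16 columns were mapped and 0 array pairs were identical. The number of arrays limits the precision.

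Genes above each array's median (50th percentile over probe sets) on 4 or more arrays were fitted with limma 3.58.1 (R 4.3.3; lmFit, eBayes) on genotype and pH, and on 4 group means for each pH and for the interaction (pH 6.7 minus pH 7.7). P-values were 2-sided and Benjamini-Hochberg adjusted over all tested genes, with a threshold of 0.05; "unadjusted" marks limma p-values before adjustment. The steps were tested on simulated data. Samples were not paired by replicate number, since the labels state no pairing. Same-numbered arrays of different groups had correlations of their deviations between −0.31 and 0.29, over all pairs of groups pooled, which does not exclude pairing within a genotype.

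The members and the gene lists were chosen with earlier results of these data known. Named genes are those that passed at both pH values or, as fewer than 10 did, the 10 with the smallest p, up to 4 of each list by p, called genes within 25 annotated genes of the locus, and the 5 smallest interaction p. Added after values were seen were genes whose KO and WT arrays were apart at both pH values in the same direction. So were genes with an unadjusted p under 0.05 at both pH values, in the same direction, in the separate fits. The targeted gene is not reported here. Alternatives were the probe set rule, the filter, array scaling, the variance model, array weights, the replicate block, leaving out the pH term, and leaving out each array; values for the lists, the neighbours and the same or opposite directions under them were chosen after seeing the data.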

Additional observations from a re-analysis of the deposited data

Results flagged for a closer look

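The 73 named genes were checked in each of the 4 groups, 292 groups of 4 arrays, for an array far from the other 3. In 12 of them the gap to the nearest array exceeded Dixon's 95% critical value for 4 samples, and chance gives this in about 1 in 20 groups. On WT pH 6.7 replicate 1, Abt1 was low at 2.713 (others 2.847 to 2.873), Sdad1 low at 3.859 (others 4.230 to 4.251), Xbp1 low at 5.211 (others 5.476 to 5.500) and Hes6 high at 4.049 (others 3.311 to 3.358), all in log2. On WT pH 6.7 replicate 2, Tgfb2 was high at 5.919, and on WT pH 7.7 replicate 1, Cpped1 was low at 4.329. On KO pH 6.7 replicate 3, Nupr1 was low at 6.887 and Dleu2 high at 4.285. On KO pH 6.7 replicate 4, Tmem263 was low at 3.554 and Galc low at 6.471. On KO pH 7.7 replicate 3, Sesn2 was high at 3.172 and Gpr65 low at 6.747 (others 7.104 to 7.112).

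For 5 named genes the genotype difference itself differed between pH values, as KO minus WT at pH 6.7 minus KO minus WT at pH 7.7 in log2 with an adjusted limma p under 0.05. The interaction was 1.392 for Gm6983 (adjusted p = 0.000892), 2.547 for Dleu2 (0.0149), 0.743 for Zc3h12c (0.028), −0.889 for Htra4 (0.028) and −0.732 for Loxl3 (0.028). For Gm6983, Dleu2, Zc3h12c and Loxl3 the KO and WT arrays were apart in opposite directions at the 2 pH values, and for Htra4 they were apart at pH 6.7 only.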

How the results depend on the processing

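The count of genes past the threshold of the main effect, 1, was 0 with the brightest probe set, the median over probe sets, no filter, the 75th percentile filter and no pH term, and so was the count of genes that differed at both pH values. Dglucy then had −0.78 (brightest), −0.81 (median) and −0.59 (no filter, no pH term) in log2, and under the 75th percentile filter it was not tested. The count at pH 6.7, 3, was 72 with the brightest probe set, 23 with array weights, 5 without a filter, 1 after quantile normalization, and 0 with the median over probe sets, the 75th percentile filter and the replicate block. The count at pH 7.7, 0, was 1 after quantile normalization and 1 with the intensity trend. The interaction count, 10, was 95 with the brightest probe set, 3 with the median and 20 with the replicate block; the block left the counts of the main effect, of genes that differed at both pH values and of pH 7.7 as they were, and Dglucy passed with it at −0.59. The labels do not say whether replicate numbers pair the samples. Over all pairs of different groups, same-numbered arrays had a median correlation of −0.04 over 24 pairs, against 0.01 over 72 other pairs. Pairing across the pH values within 1 genotype was not tested apart, so these values do not exclude it.

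Leaving out 1 array at a time gave 0 to 2 genes in the main effect and 0 to 2 that differed at both pH values, 0 to 5 at pH 6.7, 0 to 3 at pH 7.7, 1 to 24 in the interaction (24 without WT pH 7.7 replicate 1, and 1 without KO pH 6.7 replicate 3 or KO pH 7.7 replicate 1), and −0.64 to −0.55 for Dglucy. The 2 genes of the main effect, Dglucy and H3c14, came without WT pH 7.7 replicate 3, where pH 7.7 had 3 genes. With 1 array left out and each pH fitted alone, 0 to 1 genes were called at pH 6.7 and 0 to 3 at pH 7.7. Of these 0 passed at the other pH, but most of these fits called no gene that could have passed. Among single genes, 8 had the opposite sign with the brightest probe set, none of them called: Bahd1 (−0.1539), Ubr7 (−0.0962), Plcb2 (−0.0653), Tgfb1 (−0.0088), Galc (0.0963), Abca1 (0.0166), Loxl3 (0.0863) and Trpv4 (−0.1194). The cause of these changes was not tested. No probe set's distance from background was measured, so dim genes, such as Ahi1, Loxl3 and Htra4, are the least certain.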

Other observations

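Chemokine genes, which recruit leukocytes, had a median log2 difference of 0.08 over 16 tested genes, with 2 at an unadjusted limma p under 0.05, both positive, against 5.2% of all tested genes. These were Ccl2, the main monocyte chemokine, with 0.45, and Cxcl14 with 0.45. Irf4, a transcription factor of alternative activation, had 0.32. Of the adaptors of Toll-like receptors, Tirap had 0.30 and Ticam1 0.21, whereas the receptor gene Tlr6 had −0.21. Of the 19 tested receptors and adaptors, 2 had a positive and 1 a negative difference at an unadjusted p under 0.05, with a median of −0.01. After quantile normalization 0 were positive and 3 negative at that p, against 262 and 266 of all 9386 tested genes. Of all tested genes 5.2% were positive and 1.17% negative as deposited. These genes were chosen after their values were seen, and none passed the adjustment. After quantile normalization, and also without WT pH 7.7 replicate 2, the chemokine list had 1 gene at an unadjusted p under 0.05 and a median of 0.06.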
